A study of Mus musculus with 9 samples.

Results

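Guidance genes encode the secreted and membrane-bound cues, and their receptors, that steer growing axons and vessels. They were taken here as the semaphorins, plexins, ephrins, Eph receptors, Slits and Robos by the start of the gene symbol, together with Nrp1, Nrp2, Ntn1, Ntn4, Unc5b and Dcc. Of 19938 genes tested, 63 were guidance genes: 20 semaphorins, 11 plexins and neuropilins, 8 ephrins, 13 Eph receptors, 7 Slits and Robos, and 4 netrins and netrin receptors. All were measured in heart muscle of C57BL/6 mice, an inbred strain, 24 hours, 7 days and 10 weeks after birth. Total RNA of each age was read on 3 Affymetrix Mouse Gene 1.0 ST arrays, each of which gives a log2 signal per feature, where a difference of 1 is a 2-fold change. The labels name no treatment, genotype or sex, and leave unstated whether the arrays of 1 age stem from different animals. The p-values therefore measure only the spread between these samples, which may be technical.

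In the secreted branch of the semaphorins, the ligand binds a neuropilin, and a plexin passes the signal into the cell and makes the growing tip retract or turn; most membrane-bound semaphorins bind plexins directly. Ephrins are held on the cell surface and bind Eph receptor tyrosine kinases on a neighbouring cell, so contact sorts cells and sets borders, as between arteries carrying ephrin-B2 and veins carrying EphB4. Slits bind Robo receptors, and netrins bind Dcc or Unc5 receptors. In the heart these systems are known for septation of the outflow tract, for patterning of vessels and for the ingrowth of sympathetic nerves. Sema3a is known there as a repellent that keeps sympathetic axons out of the inner ventricular wall.

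All 10 cardiomyocyte markers of a list for heart muscle lay above the median gene signal of 5.57 in their mean over the 9 arrays, and their summed signal, on the linear scale, ran from 51431 to 55114. Some arrays stood apart in other ways. The summed signal of 8 lung and liver markers was 226 on 24-hour replicate 1 and 495 on 7-day replicate 2, against 144 to 188 on the others. Ucp1, the uncoupling protein of brown fat, had signals of 4.30, 11.23 and 9.27 on 7-day replicates 1, 2 and 3. Differences of the guidance genes that rest on the 7-day arrays were therefore also read without replicates 2 and 3. For the other gene lists only differences on all arrays are given. The atrial gene Myl7 measured 4.70, 8.43 and 7.52 on the 10-week arrays and 10.27 to 11.37 on the younger ones. The Y-linked gene Eif2s3y measured 6.06 to 7.70 on the younger arrays and 2.87 to 3.30 at 10 weeks, while Xist measured 8.26 to 9.56 on every array, so sex and age cannot be told apart at 10 weeks. Among the guidance genes, 40 had a mean signal above the median and 23 did not. The table holds no detection flags, and 9 of the guidance genes carried 1 identical value on 4 or more arrays, as did 15.2% of all genes; 8 of these 9 were among the dim ones.

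Most guidance genes that changed between 7 days and 10 weeks fell. Against 7 days, 21 were lower and 6 were higher at 10 weeks, or 33.3% and 9.52% of the 63, where 18.9% of all genes were lower and 17% were higher (limma, adjusted p under 0.05). Across the first week 5 were lower and 5 higher, or 7.94% in each direction, against 4.81% and 5.27% of all genes. Calls in either direction took 15.9% of the guidance genes and 10.1% of all genes in the first week, 42.9% and 35.9% at the later step, and 52.4% and 40.1% over the whole interval. Over the whole interval, 23 were lower and 10 higher at 10 weeks than at 24 hours, or 36.5% and 15.9%, against 20.6% and 19.5% of all genes. In total 36 of the 63 were called in at least 1 comparison, and 27 in none, counts for which no share of all genes was computed. A change of at least 2-fold was called for Sema3c in the first week (1 gene higher, 1.59%, against 0.426% of all genes). At the later step 5 guidance genes fell at least 2-fold (7.94%, against 2.98%), namely Sema3a, Sema3c, Sema3d, Sema5a and Epha7, and over the interval 6 did (9.52%, against 3.39%), with Slit2 and Epha3 and without Sema3c. In RNA of whole heart muscle, fewer cells of a type and less RNA per cell cannot be told apart.

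At least 1 call was made for 30 of the 40 guidance genes above the median signal and for 6 of the 23 others. Bright genes were called more often in general. At 10 weeks against 24 hours 61% of all genes above the median and 40.1% of all genes were called, with 72.5% of the 40. Of the 40, 20 (50%) were lower and 2 (5%) higher at 10 weeks than at 7 days, while 32.9% and 22.8% of all genes above the median were. Calls in either direction took 55% of these guidance genes and 55.8% of all such genes. In the first week 5 (12.5%) of these guidance genes were lower and 4 (10%) higher, against 8.53% and 9.29%. Their median difference at the later step was -0.27 on the log2 scale, against 0.04 over all genes tested, bright and dim. Among genes whose highest age mean lay above the median, it was -0.24 for guidance genes and -0.04 over all 10496. For all 63 the median was -0.06. With each array centred on its median, 13 were higher and 21 lower at 10 weeks than at 7 days. These are 54% of the guidance genes, where 42.9% of all genes were called, against 35.9% without centring. Leaving out 7-day replicates 2 and 3, 18 were lower and 3 higher at this step, and 2 lower and 1 higher across the first week. Leaving out any 24-hour or 7-day array left 2 or 3 higher in the first week. Without 24-hour replicate 2 or 3, 7-day replicate 1 or 3, or 10-week replicate 1, 3 were lower in that week. Calls over all genes in the first week took 5.76% to 7.77% without any single 24-hour or 7-day array, against 10.1% on all arrays. Leaving out 7-day replicate 3 left 3 higher at 10 weeks than at 7 days, with 30.7% of all genes called in either direction.

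**Figure D1:**
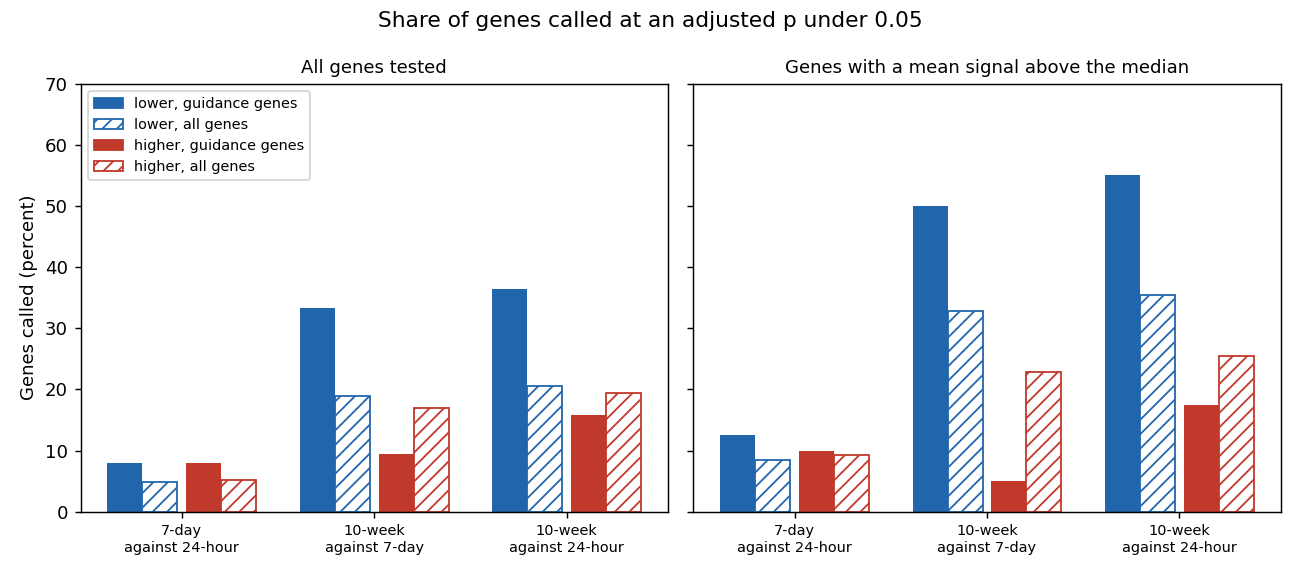
Share of genes called lower (blue) or higher (red) in each comparison at an adjusted p under 0.05, for the guidance genes (filled bars) and for all genes (hatched bars). The left panel covers the 63 guidance genes and 19938 genes, the right panel the 40 and 9969 with a mean signal above the median; at 10 weeks against 7 days the right panel shows 50% of guidance genes lower against 32.9% of all genes.

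**Figure D2:**
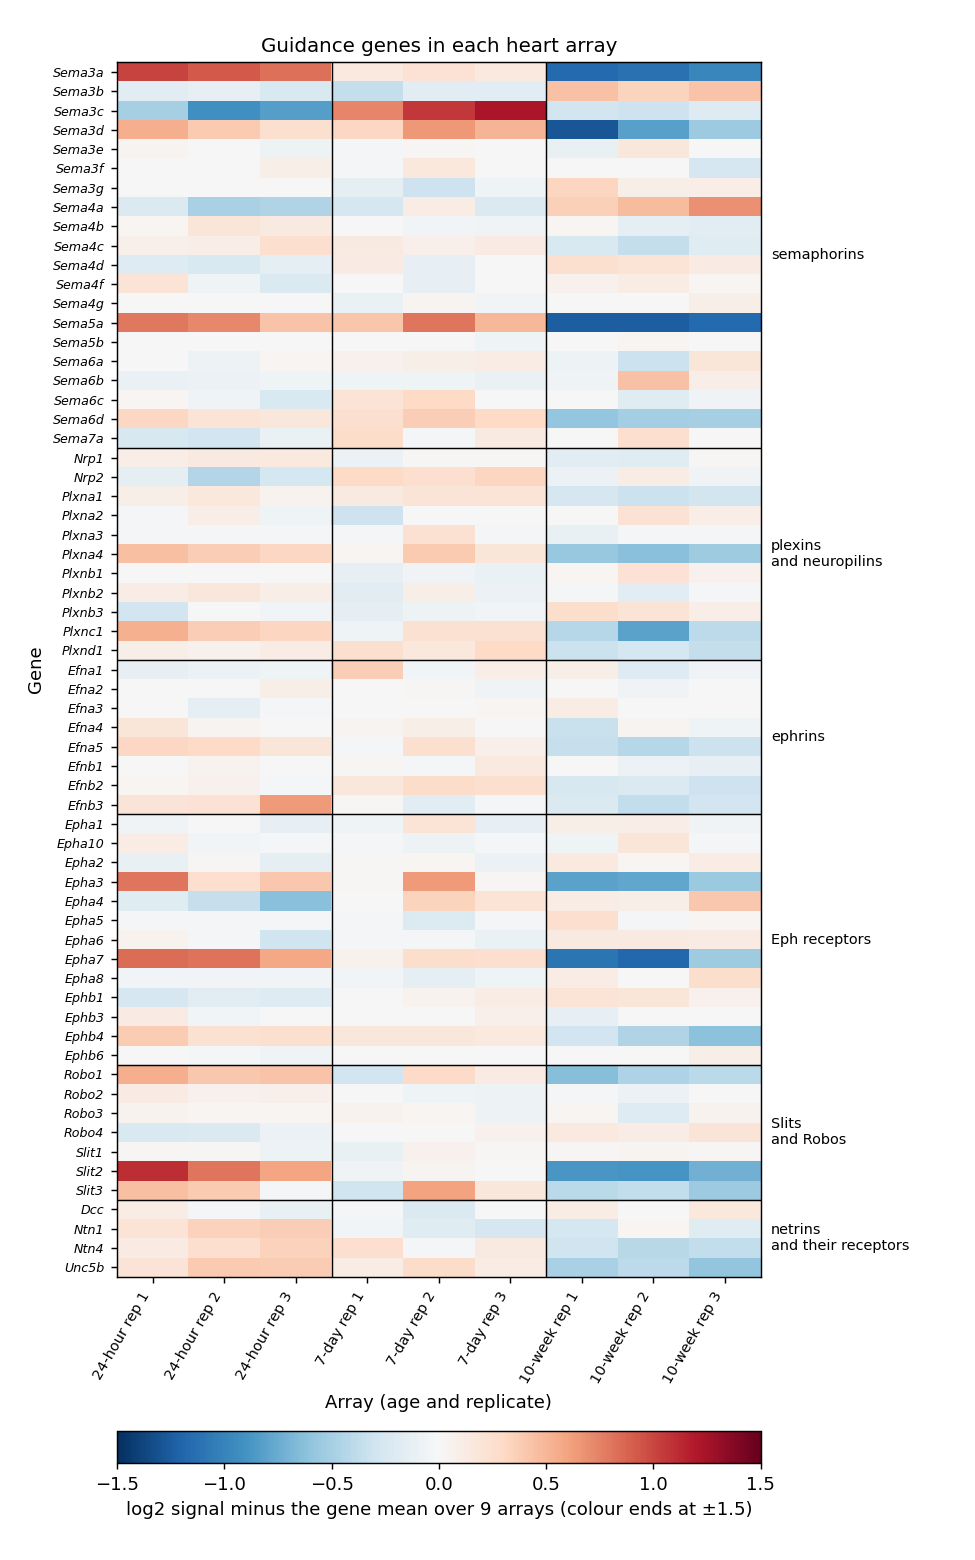
Log2 signal of each of the 63 guidance genes on each of the 9 arrays, as the difference from that gene's mean over the arrays; red is higher, blue lower, and colours end at 1.5 in either direction. Sema3a, Sema5a, Slit2 and Epha7 run from red at 24 hours to blue at 10 weeks, and Sema3c is reddest at 7 days.

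Sema3a fell at both steps and by more than any other guidance gene over the whole interval. Its log2 signal was 7.03, 6.94 and 6.84 at 24 hours, 6.16, 6.23 and 6.17 at 7 days, and 4.85, 4.90 and 5.04 at 10 weeks. No age overlapped another, and the level stepped down at each age. The differences were -0.75 ± 0.07 (SE, n = 3 per age) in the first week and -1.26 ± 0.07 from then to 10 weeks, with limma adjusted p of 1.54e-04 and 4.42e-07. Over the interval the signal became 4.01-fold lower (adjusted p = 1.43e-08). Both steps were called under every alternative tried, including without 7-day replicates 2 and 3.

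Slit2, a secreted ligand of the Robo receptors, and Epha7, an Eph receptor that binds A-type ephrins, were the other guidance genes called lower at both steps. Slit2 measured 7.64, 7.33 and 7.12 at 24 hours, 6.48, 6.57 and 6.52 at 7 days, and 5.66, 5.64 and 5.81 at 10 weeks. Its ages did not overlap, and it fell by 0.84 ± 0.11 and then by 0.82 ± 0.11 (SE; adjusted p = 0.00115 and 2.31e-04). Without 7-day replicates 2 and 3 the first of these was -0.88 with an adjusted p of 0.0543. Epha7 measured 8.04, 8.02 and 7.78, then 7.26, 7.47 and 7.45, then 6.10, 6.02 and 6.67. Its ages did not overlap either, with 10-week replicate 3 the highest of its age. The first-week difference of -0.55 ± 0.15 (SE) had an adjusted p of 0.0473. It ran from -0.63 to -0.48, with adjusted p of 0.0612 to 0.162, without any single 24-hour or 7-day array or 10-week replicate 1. Its later difference of -1.13 ± 0.15 had an adjusted p of 1.89e-04.

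These 3 genes were 4.76% of the guidance genes, where 2.09% of all genes were called lower at both steps. Another 3, Sema3c, Nrp2 and Efnb2, were called higher and then lower, also 4.76%, against 1.8% of all genes. Both steps share the 7-day arrays, so these counts describe the calls only. A further 4 were called in the first week only (Ntn1, Efnb3, Epha4, Ephb1), or 6.35% against 2.92% of all genes. At the later step only there were 21 (33.3% against 28.8%), and 32 were called at neither. With limma's adjusted p, 0 were higher at both steps and 0 lower then higher, against 2.03% and 1.23% of all genes; at an unadjusted p under 0.05, 2 were higher at both steps (Sema4a, Sema4d) and 0 lower then higher. With 7-day replicates 2 and 3 left out, fewer guidance genes were called lower at both steps or higher then lower. Fewer of all genes were called at either step there as well. Without either 7-day replicate 3 or 10-week replicate 1 alone, 1 gene was called higher then lower.

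The promoter sequences of the 3 genes that fell at both steps and of Sema3c, which rose the most in the first week, are given for comparison, as the 250 bases before the RefSeq start site on GRCm38.p6. Capitals mark matches on either strand to the TATA box TATAAA, the CCAAT box CCAAT and the GC box GGGCGG. The E-box CACGTG was also searched and has no match in these windows. All 4 lie on the plus strand: Sema3a at chr5:13396534-13396783, Slit2 at chr5:47982905-47983154, Epha7 at chr4:28812881-28813130 (the more upstream of 2 listed starts) and Sema3c at chr5:17574566-17574815.
Sema3a: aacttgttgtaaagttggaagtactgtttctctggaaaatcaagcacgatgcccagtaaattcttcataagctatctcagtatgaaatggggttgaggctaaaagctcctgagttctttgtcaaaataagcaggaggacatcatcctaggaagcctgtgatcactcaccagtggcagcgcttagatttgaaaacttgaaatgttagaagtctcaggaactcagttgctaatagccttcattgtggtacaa
Slit2: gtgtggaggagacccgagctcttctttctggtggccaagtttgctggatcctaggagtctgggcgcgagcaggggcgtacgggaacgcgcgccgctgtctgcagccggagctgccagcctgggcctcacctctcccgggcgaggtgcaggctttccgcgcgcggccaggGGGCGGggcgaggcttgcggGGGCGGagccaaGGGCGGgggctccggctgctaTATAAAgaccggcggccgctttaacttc
Epha7: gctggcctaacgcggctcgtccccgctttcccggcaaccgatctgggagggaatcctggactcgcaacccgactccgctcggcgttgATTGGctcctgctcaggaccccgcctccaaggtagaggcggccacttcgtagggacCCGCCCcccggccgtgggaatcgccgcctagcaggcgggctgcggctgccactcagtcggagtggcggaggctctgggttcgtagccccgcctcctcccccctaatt
Sema3c: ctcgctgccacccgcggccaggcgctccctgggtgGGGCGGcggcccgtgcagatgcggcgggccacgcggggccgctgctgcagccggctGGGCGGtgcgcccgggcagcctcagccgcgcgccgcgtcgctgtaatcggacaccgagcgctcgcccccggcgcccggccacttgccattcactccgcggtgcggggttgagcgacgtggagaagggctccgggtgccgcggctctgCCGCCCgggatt

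The Sema3a window holds 40.8% G and C and none of the searched motifs. The windows of Slit2, Epha7 and Sema3c hold 69.6%, 69.2% and 78.4%; Slit2 has 3 GC boxes and 1 TATA box, Epha7 has 1 GC box and 1 CCAAT box, and Sema3c has 3 GC boxes. RefSeq windows were matched for 54 of the 63 guidance genes. GC boxes occurred in 41 of them (75.9%), against 46% of the windows of 15614 tested genes, and the median content of G and C was 64.4% against 56.4%. TATA boxes occurred in 2 (3.7%, against 11.2%), CCAAT boxes in 15 (27.8%, against 35.6%) and E-boxes in 3 (5.56%, against 7.04%). A match describes letters in this window and not a bound site.

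Of the 20 semaphorins, 6 (30%) were lower and 3 (15%) higher at 10 weeks than at 7 days, against 18.9% and 17% of all genes. Against 24 hours 6 (30%) were lower and 5 (25%) higher, where 20.6% and 19.5% of all genes were. The secreted class 3 semaphorins include Sema3a, described above, and Sema3c, Sema3d and Sema3b. Sema3c, a cue for neural crest cells in the outflow tract, measured 6.82, 6.39 and 6.49 at 24 hours, 8.04, 8.37 and 8.54 at 7 days, and 7.04, 7.00 and 7.12 at 10 weeks. Every 7-day value exceeded every other. The rise of 1.75 ± 0.13 (SE, 3.36-fold, adjusted p = 3.92e-05) was the largest of any guidance gene in the first week, and the fall of 1.26 ± 0.13 followed (adjusted p = 3.32e-05). At 10 weeks Sema3c was higher than at 24 hours by 0.49 (adjusted p = 0.0143), but by 0.40 to 0.45 without 24-hour replicate 2 or 3 (adjusted p = 0.0637 and 0.0548). Of 15 fibroblast markers, 9 (60%, against 5.27% of all genes) were higher at 7 days than at 24 hours. At 10 weeks 9 (60%, against 18.9%) were lower than at 7 days, but these were not all the same genes. Mfap5 rose by 1.62 and then fell by 1.48. Pi16 rose by 1.14 and was not called at the later step (0.21), and Col1a1 fell by 3.02 without a called rise before (0.51). The summed linear signal of the 15 markers was 12063 to 13778, then 18025 to 22539, then 11129 to 12600. The part of these markers in the Sema3c result was not tested.

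Sema3d and Sema5a fell after the first week, in which they differed by 0.10 and -0.07 and were not called. Sema3d, which guides endothelial and neural crest cells, measured 6.88, 6.73 and 6.58 at 24 hours, 6.65, 6.99 and 6.85 at 7 days, and 5.06, 5.52 and 5.80 at 10 weeks. The 10-week values lay below all others and spread the most. The fall of 1.37 ± 0.17 (SE) from 7 days had an adjusted p of 8.71e-05. Markers of the epicardium and mesothelium, the outer lining of the heart, were read at the same step. Of 10 such markers, 7 (70%) were lower, against 18.9% of all genes. Their summed signals were 955 to 1265, 855 to 1147 and 408 to 521 at the 3 ages. The part of these markers in the Sema3d result was not tested. Sema5a, a membrane-bound semaphorin with thrombospondin repeats, measured 7.58, 7.51 and 7.21, then 7.20, 7.59 and 7.28, then 5.55, 5.55 and 5.62. The youngest ages overlapped and the 10-week arrays lay well below them. This 3.44-fold fall, -1.78 ± 0.12 on the log2 scale (adjusted p = 1.11e-06), was the largest of any guidance gene between 7 days and 10 weeks.

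The brightest semaphorin features were those of Sema6d, Sema6a and Sema3c. Sema6d, known for signalling through Plxna1 in heart development, measured 8.13, 8.03 and 7.99 at 24 hours, 8.07, 8.19 and 8.12 at 7 days, and 7.24, 7.32 and 7.33 at 10 weeks. It fell by 0.83 ± 0.06 (SE) after the first week (adjusted p = 2.15e-06), with no overlap. Sema6a measured 7.79, 7.70 and 7.81, then 7.84, 7.87 and 7.89, then 7.70, 7.46 and 7.96, so its ages at 24 hours and 10 weeks overlapped and it was called in no comparison. Sema4c, a ligand of the B plexins, was lower at 10 weeks by 0.37 (adjusted p = 0.00207).

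Higher levels at 10 weeks were found for Sema3b and Sema4a. Sema3b, which lies near Sema3f on chromosome 9, had means of 6.20 ± 0.06, 6.14 ± 0.11 and 6.77 ± 0.05 (SD, n = 3) at the 3 ages and rose by 0.64 from 7 days (adjusted p = 4.59e-05). Sema4a, a membrane-bound semaphorin known from immune cells, measured 4.47, 4.20 and 4.24, then 4.44, 4.80 and 4.48, then 5.05, 5.16 and 5.38. All 10-week values exceeded the younger ones, though the gene lay below the median signal throughout; the rise of 0.62 from 7 days had an adjusted p of 0.00203. Macrophage markers rose beside it, 12 of 13 (92.3%) between 7 days and 10 weeks, against 17% of all genes. Their summed signals were 1942 to 2095 and 3888 to 4243, and their part was not tested. Sema4d rose by 0.37 over the whole interval (adjusted p = 0.00161). Sema7a rose by 0.28 (adjusted p = 0.0403) and Sema4b fell by 0.21 (adjusted p = 0.041) over it, and both were under the threshold only with particular arrays. The Sema7a rise was 0.20 to 0.28 (adjusted p = 0.0603 to 0.139) with 10-week replicate 2, 7-day replicate 3, or 24-hour replicate 1 or 2 left out. Without any 1 of 7 arrays, all but 24-hour replicate 1 and 10-week replicate 1, Sema4b ran from -0.21 to -0.17 (adjusted p = 0.0548 to 0.141). Sema3g rose by 0.35 from 7 days (adjusted p = 0.00764), and by 0.31 without 7-day replicates 2 and 3 (adjusted p = 0.0899). The mean signal of Sema3g lay below the median. Sema3e, Sema3f, Sema4f, Sema4g, Sema5b, Sema6b and Sema6c were called in no comparison. Sema5b carried 1 identical value on 7 of the 9 arrays. The pair of features for Sema6b held identical values and count as 1 measure.

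**Figure D3:**
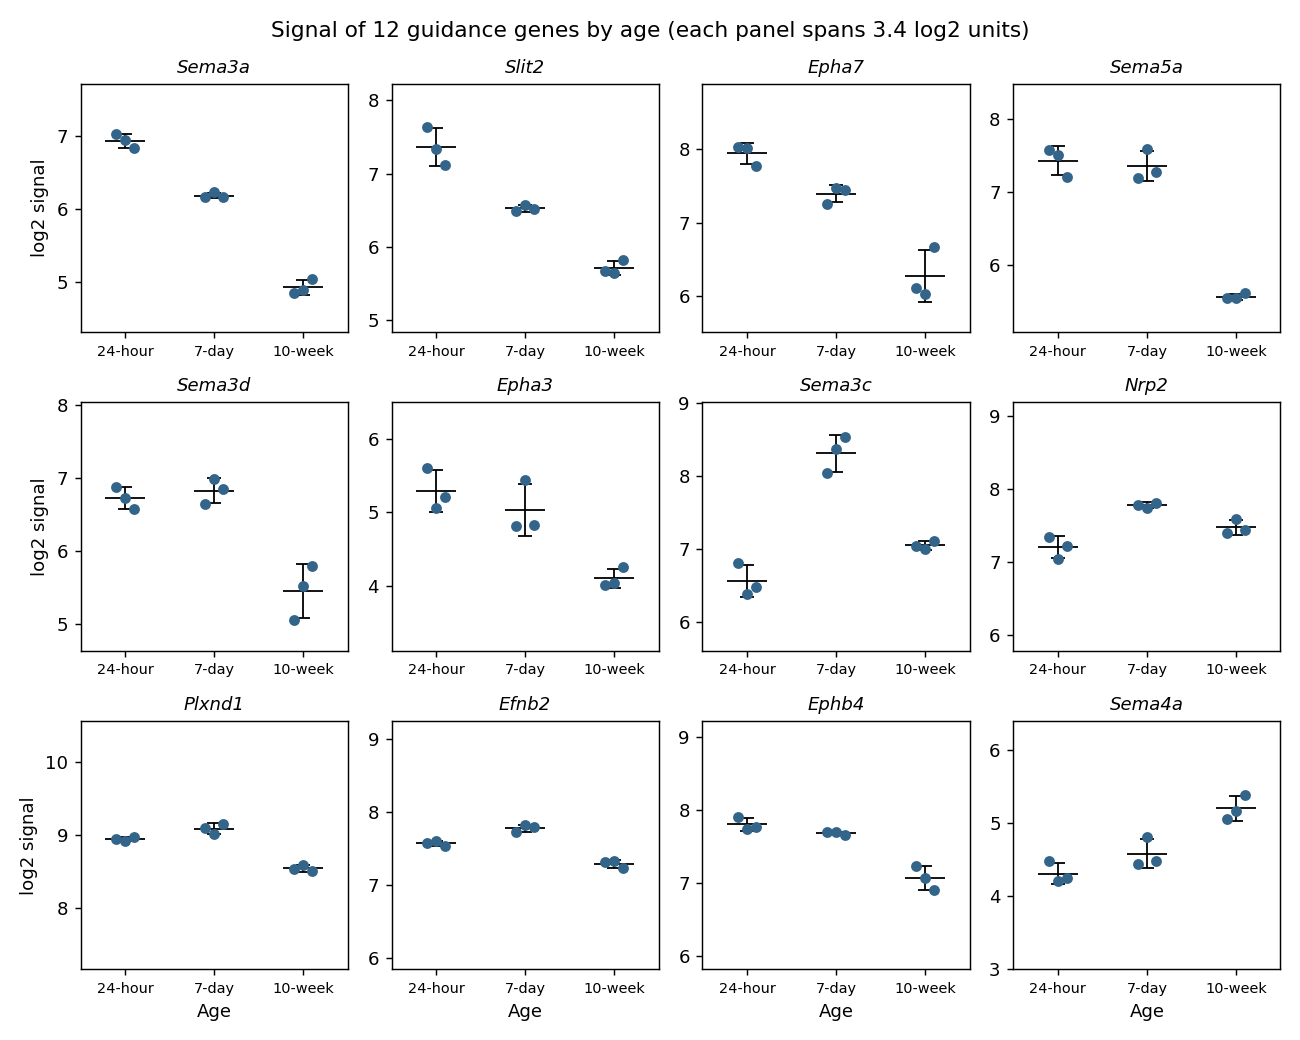
Log2 signal of 12 guidance genes at 24 hours, 7 days and 10 weeks; each point is an array, and the bar with whiskers is the mean ± SD of 3 arrays, with every panel spanning the same range of log2 units. Sema3a, Slit2 and Epha7 step down at each age, Sema5a and Sema3d drop after 7 days, Sema3c peaks at 7 days between 8.04 and 8.54, and Sema4a is highest at 10 weeks.

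Of the 11 plexins and neuropilins, the receptors of the semaphorins, 5 (45.5%) were lower at 10 weeks than at 7 days, against 18.9% of all genes. The 2 that were higher (18.2%) are near the 17% of all genes. Plxnd1, the endothelial receptor for Sema3e, measured 8.95, 8.93 and 8.98 at 24 hours, 9.10, 9.02 and 9.16 at 7 days, and 8.54, 8.60 and 8.51 at 10 weeks. It was lowest on all 10-week arrays, falling by 0.54 ± 0.05 (SE, adjusted p = 2.08e-05), while its ligand Sema3e stayed between 3.74 and 4.02 on the 9 arrays, below the median signal. Plxna4 measured 7.57 ± 0.07, 7.40 ± 0.18 and 6.62 ± 0.05 (SD, n = 3) and fell by 0.78 after 7 days (adjusted p = 5.54e-05); with neuropilin it receives Sema3a on sympathetic and sensory axons. Plxna1, the partner of Sema6d, fell by 0.46 (adjusted p = 7.02e-05). Plxnc1, the receptor of Sema7a, fell by 0.67 (adjusted p = 0.00124), and by 0.48 without 7-day replicates 2 and 3 (adjusted p = 0.0867).

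The neuropilins had different values over time, though the difference between them was not tested. Nrp1, which binds Sema3a and also VEGF, measured 9.47, 9.50 and 9.52 at 24 hours, 9.28, 9.39 and 9.39 at 7 days, and 9.20, 9.19 and 9.39 at 10 weeks. The 7-day and 10-week values overlapped, and only the whole interval was called, at -0.24 ± 0.06 (SE, adjusted p = 0.0106). Nrp2, which binds Sema3c and Sema3f and is known from veins and lymphatic vessels, measured 7.34, 7.04 and 7.22, then 7.78, 7.74 and 7.81, then 7.39, 7.59 and 7.43. Like Sema3c it was highest on every 7-day array. It rose by 0.57 ± 0.08 (adjusted p = 0.00169) and fell by 0.31 ± 0.08 (adjusted p = 0.0145). Without 7-day replicates 2 and 3 these were 0.58 and -0.31, with adjusted p of 0.0741 and 0.154. Without 7-day replicate 3 or 10-week replicate 1 alone the fall was 0.27 to 0.29 (adjusted p = 0.0524 to 0.0556).

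Plxnb2 measured 8.77, 8.82 and 8.75 at 24 hours, 8.49, 8.74 and 8.56 at 7 days, and 8.63, 8.49 and 8.63 at 10 weeks, and was called in no comparison. Its 24-hour values lay above the others by a small margin (-0.20 at 10 weeks, adjusted p = 0.0501). Plxnb1 and the X-linked gene Plxnb3 rose by 0.20 and 0.27 between 7 days and 10 weeks (adjusted p = 0.0286 and 0.028). Plxnb1 was no longer called without 7-day replicate 1 or 3 or 10-week replicate 2 (0.14 to 0.20, adjusted p = 0.075 to 0.0874). Plxnb3 was no longer called without any 7-day array or without 10-week replicate 1 or 2 (0.24 to 0.30, adjusted p = 0.0506 to 0.091). Plxnb3 lay below the median signal. Plxna2 and Plxna3 were called in no comparison.

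Of the 8 ephrins, 2 (25%) were lower at 10 weeks than at 7 days, against 18.9% of all genes, and 3 (37.5%) lower than at 24 hours, against 20.6%. In the first week 1 was higher (Efnb2) and 1 lower (Efnb3). Efnb2, the ephrin of arterial endothelium, measured 7.57, 7.61 and 7.53 at 24 hours, 7.72, 7.82 and 7.79 at 7 days, and 7.31, 7.33 and 7.23 at 10 weeks. The ages did not overlap. Its fall of 0.49 ± 0.06 (SE) from 7 days had an adjusted p of 5.36e-05. The first-week rise of 0.21 ± 0.06 had an adjusted p of 0.0396 and was 0.19 to 0.24, with adjusted p of 0.0503 to 0.133, without any single 24-hour or 7-day array or 10-week replicate 1. Ephb4, its receptor on veins, measured 7.90, 7.74 and 7.76, then 7.69, 7.69 and 7.66, then 7.23, 7.06 and 6.90. It fell at the same step, by 0.62 ± 0.08 (adjusted p = 1.65e-04), and all 10-week values lay below the younger ones.

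Endothelial markers did not move together. At 10 weeks against 7 days 6 of 16 (37.5%) were lower and 3 (18.8%) higher. All 16 lay above the median signal, where 32.9% of all genes were lower and 22.8% higher. Their summed signal was 7532 to 7595 at 24 hours, 8050 to 8430 at 7 days and 7296 to 7906 at 10 weeks. That list holds Robo4, itself a guidance gene. The part of the endothelial markers in the Plxnd1, Efnb2 and Ephb4 differences was not tested.

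Efnb3, an ephrin known as a midline cue in the spinal cord, measured 7.67, 7.69 and 8.12 at 24 hours, 7.49, 7.32 and 7.45 at 7 days, and 7.26, 7.11 and 7.19 at 10 weeks. The ages did not overlap, and 24-hour replicate 3 was the highest value. Over the interval it fell by 0.64 ± 0.11 (SE, adjusted p = 9.11e-04). The first-week part of -0.41 (adjusted p = 0.0458) ran from -0.48 to -0.26 without any single array except 24-hour replicate 1, with adjusted p of 0.0578 to 0.14. Efna5 fell by 0.46 after 7 days (adjusted p = 8.15e-04). Efna1, the brightest ephrin feature, measured 7.90, 7.94 and 7.96, then 8.40, 7.99 and 8.13, then 8.12, 7.84 and 7.97, and was called in no comparison. Neither were Efna2, Efna3, Efna4 and the X-linked gene Efnb1.

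Of the 13 Eph receptors, 3 (23.1%) were lower and 2 (15.4%) higher at 10 weeks than at 24 hours, shares near the 20.6% and 19.5% of all genes, and the other 8 were not called. Epha3, a receptor for ephrin-A5 known from the endocardial cushions and atrial septum, measured 5.61, 5.06 and 5.21 at 24 hours, 4.82, 5.45 and 4.83 at 7 days, and 4.01, 4.03 and 4.25 at 10 weeks. The first 2 ages overlapped and all 10-week values were lower. The fall over the interval was 1.20 ± 0.18 (SE, 2.3-fold, adjusted p = 3.31e-04), though the mean signal of Epha3 lay below the median. Epha7 and Ephb4 are the others that fell. Markers of the atrium fell with age as well, 7 of 8 (87.5%) at 10 weeks against 24 hours, where 20.6% of all genes fell. Their summed signals were 12065 to 15609 and 6470 to 7761. The part of these markers in the Epha3 result was not tested.

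Epha4, a receptor for both classes of ephrins and the brightest Eph feature, went the other way. It measured 7.38, 7.22 and 6.93 at 24 hours, 7.56, 7.90 and 7.77 at 7 days, and 7.67, 7.65 and 7.97 at 10 weeks. Every 24-hour value was lower than every later one. Its rise over the interval was 0.59 ± 0.13 (SE, adjusted p = 0.00449). The first-week part of 0.56 (adjusted p = 0.0229) was 0.44 to 0.58 without 24-hour replicate 2 or 3 or 7-day replicate 2 or 3, with adjusted p of 0.0665 to 0.0853. Ephb1 rose over the interval by 0.36 (adjusted p = 0.00102) on its brighter feature, 4.65 to 4.73 at 24 hours and 4.96 to 5.11 at 10 weeks. Its first-week rise of 0.26 (adjusted p = 0.0269) was 0.24 to 0.28 without any single 24-hour or 7-day array, with adjusted p of 0.0532 to 0.108. The dimmer Ephb1 feature did not show the rise, lying between 3.26 and 3.59 on all arrays. Epha8 rose by 0.21 after 7 days (adjusted p = 0.0435). That call was lost without any single array except 10-week replicate 2 (0.14 to 0.23, adjusted p = 0.0609 to 0.138). Both Ephb1 and Epha8 lay below the median signal. Epha1, Epha2, Epha5, Epha6, Epha10, Ephb3 and Ephb6 were called in no comparison.

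**Figure D4:**
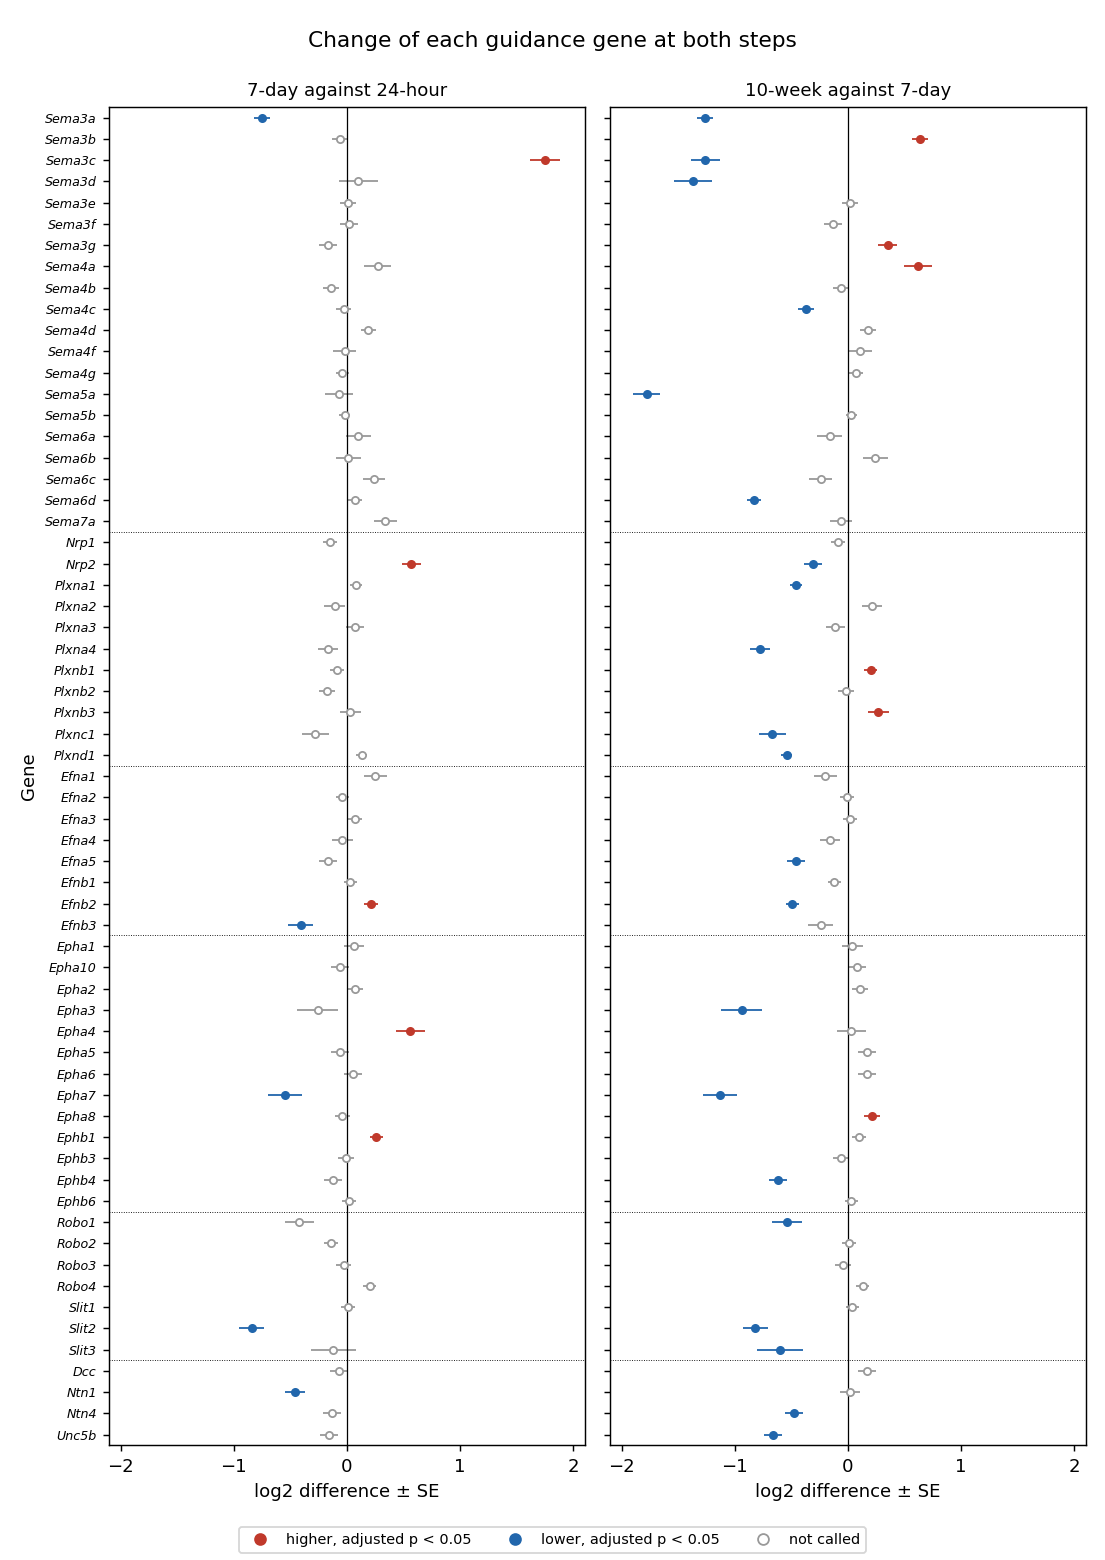
Log2 difference ± SE of each of the 63 guidance genes from 24 hours to 7 days (left) and from 7 days to 10 weeks (right), grouped by role; filled red points are called higher, filled blue points lower, open grey points not called. The left panel has 5 red and 5 blue points, led by Sema3c at 1.75, and the right panel has 6 red and 21 blue, led by Sema5a at -1.78.

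Of the 7 Slits and Robos, 3 (42.9%) were lower at 10 weeks than at 7 days, against 18.9% of all genes and 32.9% of those above the median signal. Slit3, a Robo ligand known from the diaphragm and heart, measured 7.45, 7.39 and 6.98 at 24 hours, 6.70, 7.60 and 7.16 at 7 days, and 6.59, 6.62 and 6.45 at 10 weeks. The 7-day arrays spread over the range of the 24-hour ones, and the 10-week values were the lowest. The fall of 0.60 ± 0.20 (SE, adjusted p = 0.0361) from 7 days was 0.38 to 0.63 without any 10-week array, 7-day replicate 2 or 3, or 24-hour replicate 2, with adjusted p of 0.0509 to 0.117. With both 7-day replicates 2 and 3 left out it was 0.15 (adjusted p = 0.654). Against 24 hours it fell by 0.72 (adjusted p = 0.0135), or by 0.63 to 0.66 without 24-hour replicate 1 or 2 (adjusted p = 0.0527 to 0.059).

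Robo1, a receptor of the Slits, measured 7.19, 7.05 and 7.07 at 24 hours, 6.36, 6.93 and 6.76 at 7 days, and 6.00, 6.18 and 6.24 at 10 weeks. The ages did not overlap. The first-week difference of -0.42 ± 0.13 (SE) had an adjusted p of 0.0683, and the later fall of 0.54 ± 0.13 one of 0.00667. The order turned when 7-day replicates 2 and 3 were left out: the first-week difference was -0.74 (adjusted p = 0.0221) and the later one -0.23 (adjusted p = 0.238). Without 7-day replicate 2 alone the first-week difference was -0.54 (adjusted p = 0.0251). Over the whole interval Robo1 fell by 0.97 (adjusted p = 1.32e-04). Robo4, the endothelial Robo, rose instead. It measured 6.88, 6.90 and 7.02, then 7.12, 7.12 and 7.17, then 7.26, 7.22 and 7.31, with no overlap between ages. The rise over the interval was 0.33 ± 0.06 (adjusted p = 0.00104). Robo2, Robo3 and Slit1 were called in no comparison.

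The 3 netrin system genes above the median signal, Ntn1, Ntn4 and Unc5b, were all lower at 10 weeks than at 24 hours, as were 35.5% of all genes above it. Ntn1, the founding netrin, measured 8.44, 8.58 and 8.60 at 24 hours, 8.19, 8.05 and 7.98 at 7 days, and 7.97, 8.26 and 8.05 at 10 weeks. The 24-hour values lay above the others, while 7 days and 10 weeks overlapped. It fell by 0.46 ± 0.09 (SE, adjusted p = 0.00716) in the first week and differed by 0.02 afterwards. Without 7-day replicates 2 and 3 the first-week difference was -0.35 (adjusted p = 0.231). Unc5b, a netrin receptor of vessel tips, measured 7.04, 7.24 and 7.22, then 6.96, 7.12 and 6.96, then 6.36, 6.45 and 6.25. It fell after 7 days by 0.66 ± 0.08 (adjusted p = 9.23e-05), with the 10-week values below all others. Ntn4, a netrin found in basement membranes, measured 7.05, 7.18 and 7.27, then 7.17, 6.89 and 7.06, then 6.62, 6.51 and 6.55. It fell at the same step, by 0.48 ± 0.08 (adjusted p = 0.00113). Dcc had means of 4.21, 4.14 and 4.31 at the 3 ages, below the median signal, and was called in no comparison.

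Several other calls were lost without 7-day replicates 2 and 3, a setting that leaves 1 array at 7 days. Fewer of all genes were called there as well, and the part of this pair in the calls was not tested. With that pair left out, the first-week differences were 0.15 for Efnb2, -0.33 for Efnb3, 0.38 for Epha4, -0.68 for Epha7 and 0.22 for Ephb1, with adjusted p of 0.474, 0.45, 0.426, 0.224 and 0.34. The differences from 7 days to 10 weeks were 0.17 for Epha8, 0.23 for Plxnb1 and 0.34 for Plxnb3, with adjusted p of 0.362, 0.127 and 0.125. Under the same setting Efna1 was lower and Plxna2 higher at that step (-0.43 and 0.41, adjusted p = 0.0301 and 0.0353), neither of which was called on all arrays.

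Guidance genes that neighbour each other in the genome did not follow 1 course. By the RefSeq annotation of GRCm38.p6, Sema3d and Sema3a on chromosome 5 have no protein-coding gene between them. In the first week Sema3a differed by -0.75 and Sema3d by 0.10, and both fell afterwards, by 1.26 and 1.37. Sema3e, 3 protein-coding genes beyond Sema3a, stayed at its low signal. Robo1 and Robo2 on chromosome 16 are also next to each other; over the interval Robo1 differed by -0.97 and Robo2 by -0.13 (adjusted p = 0.0848). Sema3b and Sema3f, with 3 protein-coding genes between them on chromosome 9, differed by 0.57 and -0.11. These differences between neighbours were not tested.

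The genes that act with these ligands and receptors were read from a list of 61 tested effectors and other receptors. At 10 weeks against 7 days 26 (42.6%) were lower and 8 (13.1%) higher, against 18.9% and 17% of all genes. In the first week 8 (13.1%) were lower and 6 (9.84%) higher, against 4.81% and 5.27%. Their median difference at the later step was -0.15, against 0.04 over all genes. Dpysl3, a collapsin response mediator that acts below semaphorin receptors, fell by 2.02 at this step (adjusted p = 9.41e-08). Flrt2, a ligand of Unc5 receptors, fell by 1.78 (adjusted p = 1.49e-06). Grb10, an imprinted adaptor protein, fell at both steps, by 0.80 and 1.68. Plxdc2 and Plxdc1, transmembrane proteins with a plexin-like domain, rose in the first week by 0.95 and 0.64 (adjusted p = 0.024 and 0.00106).

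In a list of 39 tested genes of vessel growth pathways, 14 (35.9%) were higher and 2 (5.13%) lower in the first week, against 5.27% and 4.81% of all genes. At the later step 16 (41%) were lower and 8 (20.5%) higher, against 18.9% and 17%. Its medians at these steps were 0.15 and -0.10, against 0.00 and 0.04 over all genes. Apln, a peptide of sprouting endothelium, rose by 0.96 and then fell by 0.92 (adjusted p = 0.00173 and 3.86e-04), and its receptor Aplnr fell by 1.35 at the later step. Cxcr4, a chemokine receptor, rose by 0.78 in the first week (adjusted p = 0.00673). Hey2, a Notch target that cardiomyocytes also express, fell by 1.86 and then by 1.49. The related gene Hey1 rose by 0.67 in the first week and then fell by 0.30 (adjusted p = 1.64e-04 and 0.00395). Gja5, a gap junction gene of arteries, atria and the conduction system, fell by 1.73 after 7 days (adjusted p = 1.85e-05). Over the interval Ackr3 rose by 1.14 and the VEGF receptor Flt1 by 0.84.

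Cell division genes moved with the guidance genes that fell after the first week. All 10 listed (100%) were lower at 10 weeks than at 7 days, against 18.9% of all genes. Their summed signal was 2947 to 3779, then 2737 to 2859, then 261 to 362. Their part in the falls of the guidance genes was not tested. Of 17 tested Schwann cell and neuron markers, which mark the nerves that guidance cues steer, 3 lay above the median signal. Their summed signal was 517 to 545, 521 to 664 and 544 to 582, and Th, the defining enzyme of sympathetic neurons, measured 4.48 to 4.92 on all arrays. Smooth muscle and pericyte markers had 4 of 12 (33.3%) lower and 3 (25%) higher at 10 weeks than at 7 days. All 12 lay above the median signal, and these shares are near the 32.9% and 22.8% of all genes there.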

How the data were processed

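The authors deposited 1 log2 intensity per feature and array for 9 arrays, 3 at each age. MAS5 5.0 is listed in the submitters' processing notes; the normalization between arrays is not given in the sources used here. Base 2 was read from the range of the deposited log2 values (1.853 to 13.583), and array medians lie between 4.876 and 4.924. An array has no depth; the number of arrays limits the precision.

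Of 35556 features, 21789 have 1 gene symbol, and 21698 of these matched RefSeq by Entrez id. The brightest feature stood for each of the 999 genes with several, 4 of them guidance genes. limma 3.58.1 fitted a separate mean for each age to 19938 genes on all arrays (R 4.3.3; eBayes with an intensity trend), with Benjamini-Hochberg adjustment over all genes and calls at an adjusted p under 0.05. The script was tested on simulated data. Tables were made with Python 3.11.15.

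Values per array are given for guidance genes that were called with a change of at least 2-fold, for the 3 brightest of each role, and for some chosen after their values were seen (Sema4a, Nrp2). Up to 4 genes of another list are named per comparison, by size of change. Th and Xist were named outside this rule. The guidance genes and all lists were chosen with earlier results of these data known. Alternatives covered array centring, quantile normalization, the variance prior, the arrays fitted, the signal filter, the feature per gene and a replicate block.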

Additional observations from a re-analysis of the deposited data

How the results depend on the processing

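No call of a guidance gene changed direction under any alternative. Of the calls, 2 of 10 in the first week (Sema3a, Sema3c), 19 of 27 between 7 days and 10 weeks and 27 of 33 over the interval passed the threshold under every alternative that tested them. Centring each array on its median gave 13 genes higher at 10 weeks than at 7 days (6 as deposited). Calls over all genes at that step rose with it from 35.9% to 42.9%. Quantile normalization gave 1 guidance gene higher at both steps. Without 7-day replicates 2 and 3, fewer guidance genes were called in the first week and at the later step, as were fewer of all genes. That setting leaves 1 array at 7 days, assumed to vary like the other ages. Among genes whose highest age mean lay above the median signal, the median difference of the guidance genes was -0.24 at the later step and -0.24 over the interval. Over all genes kept by this filter it was -0.04 and -0.05. Leaving out single arrays gave 2 to 6 higher and 3 to 5 lower in the first week, 3 to 6 higher and 19 to 22 lower at the later step, and 8 to 10 higher and 21 to 23 lower over the interval, with 2 to 3 genes lower at both steps and 1 to 3 higher then lower. Deviations of same-numbered arrays correlated between -0.174 and 0.133, and those of differently numbered arrays between -0.216 and 0.25. With 3 arrays per age this cannot show whether the replicate numbers pair the samples. With the replicate block, 2 genes were higher in the first week instead of 5. The causes were not tested. Dim signals without detection flags limit what the 23 guidance genes not above the median can show.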

Other observations

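Neurotrophic factors keep alive the neurons that guidance cues steer. Of 12 tested genes of these factors and their receptors 4 (33.3%) were higher at 7 days than at 24 hours, against 5.27% of all genes (limma, adjusted p under 0.05). At 10 weeks 4 (33.3%) were lower than at 7 days, against 18.9%, and the 2 that were higher (16.7%) are near the 17% of all genes. Ret, the receptor tyrosine kinase for GDNF family ligands, rose by 0.92 in the first week (adjusted p = 8.99e-04). Its co-receptor Gfra2, which binds neurturin, rose by 0.72 and then fell by 1.26 (adjusted p = 0.00249 and 9.14e-06). The co-receptor Gfra1, which binds GDNF, rose at both steps, by 0.58 and 0.91 (adjusted p = 0.0208 and 3.33e-04). Ngfr, the low-affinity neurotrophin receptor, measured 5.92 to 5.99 at 24 hours, 6.21 to 6.41 at 7 days and 5.67 to 5.73 at 10 weeks, with no overlap between ages. Of 17 tested Schwann cell and neuron markers, 2 (11.8%) rose and 2 (11.8%) fell after 7 days, against 17% and 18.9% of all genes. The other 13 were not called. Cdh19, a cadherin of Schwann cells, rose by 1.23 (adjusted p = 9.82e-07) at a signal below the median, and Stmn2 rose by 0.59 (adjusted p = 0.0194). Uchl1, a neuronal ubiquitin hydrolase, fell by 1.06 (adjusted p = 1.94e-05) and Ngfr by 0.59 (adjusted p = 4.57e-05).

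Of 6 tested lymphatic endothelial markers, 2 (33.3%, against 4.81% of all genes) fell in the first week and 4 were not called. Lyve1 fell by 0.82 (adjusted p = 0.0202) and Prox1 by 0.35 (adjusted p = 0.00662). Lyve1 is also on the macrophage list. Between 7 days and 10 weeks 2 (33.3%, against 17% of all genes) rose and 1 (16.7%, against 18.9%) fell. Mmrn1 rose by 1.55 (adjusted p = 1.40e-05) and Prox1 by 0.18 (adjusted p = 0.0459), while Pdpn fell by 0.64 (adjusted p = 7.30e-04).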
